A study of Mus musculus with 9 samples.

Results

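The 10 core circadian clock genes Per1, Per2, Per3, Arntl, Clock, Cry1, Cry2, Nr1d1, Dbp and Tef were followed across mouse tumours and colon by RNA sequencing. They were taken by symbol from a named list and matched to 10 of the 56398 features of the count table. The genes were selected on their measured group levels in these data, and all 3 comparisons are treated as used in that choice, so the differences between groups in these 10 genes are given as descriptions with fold changes and standard errors, and no p-value is given for them. All mice were BALB/c. The AC group was 3 tumours from mice injected with CT26 cells, a colon carcinoma line of BALB/c origin, and given Astragalus and Curcuma phaeocaulis Valeton, a herb pair mixed 2:1, at 6 g/kg once a day. The model group was 3 CT26 tumours from mice given saline once a day, also listed at 6 g/kg, and the sham group was 3 samples of healthy colon. The labels used here give no site of injection, age, sex, length of treatment or hour of tissue collection, and do not state that each library is a different animal, so the p-values rest on library-to-library variation that can be technical.

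On GRCm38, in the GENCODE M21 gene models, the plus strand carries Per1 (ENSMUSG00000020893) at chr11:69095217-69109960, Arntl (ENSMUSG00000055116) at chr7:113207465-113314126, Dbp (ENSMUSG00000059824) at chr7:45705088-45710203 and Tef (ENSMUSG00000022389) at chr15:81802421-81826863. The minus strand carries Per2 (ENSMUSG00000055866) at chr1:91415982-91459324, Per3 (ENSMUSG00000028957) at chr4:151003652-151044665, Clock (ENSMUSG00000029238) at chr5:76209868-76304792, Cry1 (ENSMUSG00000020038) at chr10:85131700-85185064, Cry2 (ENSMUSG00000068742) at chr2:92403646-92434043 and Nr1d1 (ENSMUSG00000020889) at chr11:98767932-98775333.

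The circadian clock is a transcriptional loop that runs in nearly every cell. The proteins of Clock and Arntl (also called Bmal1) pair and bind E-box sequences, and so switch on the Per and Cry genes, the repressor gene Nr1d1 and the output genes Dbp and Tef. PER and CRY proteins then accumulate and shut off CLOCK and BMAL1, while the REV-ERB alpha protein of Nr1d1 represses Arntl through ROR elements, and DBP and TEF bind D-boxes. In mouse tissues the Arntl transcript typically peaks at about the opposite time of day to Per2, Per3, Dbp and Tef, and in the intestine the clock times digestion, absorption and cell division.

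The bases through which the loop acts can be read in the promoters of several of these genes. RefSeq promoter windows on GRCm38.p6, from 250 bases before to 50 after a transcription start, were matched for 9 of the 10 genes (14 windows, since some genes have several starts). Per2 had no window in the reference used here, so its promoter was not searched. The windows were searched on both strands for the E-box CACGTG, the related CACGTT, the D-boxes TTATGTAA and TTACGTAA, the ROR core AGGTCA, a longer ROR element that contains this core after an A/T-rich stretch, and the cAMP element TGACGTCA. The E-box was found in 3 of the 9 genes, Per1, Cry1 and Tef. It is present in 7.15% of all 32851 windows, or in 8.09% of 27025 genes. The sequence CACGTT was found in Cry1, Cry2 and Nr1d1 (4.68% of all windows, 5.44% of genes), and the ROR core in Per1, Arntl and Clock (16.3% of windows, 18.1% of genes). Per3 held TTATGTAA at 2 places, 205 and 158 bases before its start, where 0.938% of all windows hold at least 1. Arntl held the longer ROR element, beginning 27 bases after its second listed start (0.219% of all windows). Tef held CACGTG in both of its windows. Neither TTACGTAA (0.119% of all windows) nor TGACGTCA (1.79%) was found in the 14 windows. The window of Dbp held none of the sequences searched. A match describes the letters only. The 5 windows below are shown because they hold these sequences, which stand in capitals, the rest being in lower case. They are Per3 (chr4:151044616-151044915, minus strand), Tef at its second start (chr15:81811164-81811463, plus strand), Arntl at its second start (chr7:113207261-113207560, plus strand), Cry1 (chr10:85185005-85185304, minus strand) and Per1 at its first start (chr11:69098699-69098998, plus strand), each written 5′ to 3′ in the direction of the gene.
Per3: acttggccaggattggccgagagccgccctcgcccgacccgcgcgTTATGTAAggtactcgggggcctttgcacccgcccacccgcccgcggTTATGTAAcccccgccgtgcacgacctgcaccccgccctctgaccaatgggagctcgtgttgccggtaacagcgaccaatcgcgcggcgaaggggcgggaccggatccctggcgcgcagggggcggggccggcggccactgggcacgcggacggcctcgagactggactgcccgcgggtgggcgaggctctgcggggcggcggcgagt
Tef: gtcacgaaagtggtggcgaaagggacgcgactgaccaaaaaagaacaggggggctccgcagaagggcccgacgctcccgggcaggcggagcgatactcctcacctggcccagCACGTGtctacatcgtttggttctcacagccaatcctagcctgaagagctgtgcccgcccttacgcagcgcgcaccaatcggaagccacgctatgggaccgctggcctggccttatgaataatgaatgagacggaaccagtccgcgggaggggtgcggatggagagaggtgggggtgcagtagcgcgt
Arntl: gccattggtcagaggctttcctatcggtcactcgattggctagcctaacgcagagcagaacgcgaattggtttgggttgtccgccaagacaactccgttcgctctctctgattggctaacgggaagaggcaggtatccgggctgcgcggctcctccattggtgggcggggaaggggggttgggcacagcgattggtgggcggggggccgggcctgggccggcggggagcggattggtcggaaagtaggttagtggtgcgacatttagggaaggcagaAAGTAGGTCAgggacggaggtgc
Cry1: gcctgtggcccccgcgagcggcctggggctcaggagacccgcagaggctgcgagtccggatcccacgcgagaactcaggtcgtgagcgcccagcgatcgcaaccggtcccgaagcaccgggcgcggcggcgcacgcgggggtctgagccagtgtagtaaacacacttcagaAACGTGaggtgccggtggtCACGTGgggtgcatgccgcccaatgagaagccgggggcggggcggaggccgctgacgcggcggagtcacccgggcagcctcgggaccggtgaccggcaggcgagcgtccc
Per1: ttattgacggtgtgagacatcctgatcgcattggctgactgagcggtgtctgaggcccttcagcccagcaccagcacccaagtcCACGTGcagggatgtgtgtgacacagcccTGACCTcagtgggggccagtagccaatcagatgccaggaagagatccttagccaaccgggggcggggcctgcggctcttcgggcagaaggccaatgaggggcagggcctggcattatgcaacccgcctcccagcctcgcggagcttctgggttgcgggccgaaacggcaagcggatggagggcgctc

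Library totals ran from 15690038 to 23476056 counts, and each of the 10 genes had well over 100 counts in every library (lowest 175, for Dbp in model 3). Some libraries stood apart from others of their group in tissue markers. Summed over 4 B cell markers, sham 1 had 666.8 CPM (counts scaled to library depth with TMM factors over the 9 libraries), against 93.4 and 46.2 CPM in sham 2 and sham 3. Over 5 smooth muscle markers the same library had 89.6 CPM, against 1182 and 1296 CPM. Among tumours, AC 2 had the most smooth muscle markers (81.2 CPM, against 7.58 to 22.1 CPM in the others). Model 1 had the most B cell markers (12.9 CPM, against 2.09 to 3.71 CPM in the other tumours). Tumours had little of 8 epithelial markers (195.4 to 910.5 CPM, against 19250 to 26890 CPM in colon), with the most in AC 3 and model 1. In bulk tissue, fewer cells of a type and less RNA per cell cannot be told apart.

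In FPKM, the authors' level scaled to gene length and depth, AC tumours had means of 4.32 ± 0.396 for Arntl to 18.6 ± 2.21 for Tef (SD, n = 3). Model tumours had 4.13 ± 0.878 for Dbp to 15.1 ± 1.98 for Per1, and sham colon 2.37 ± 0.293 for Arntl to 17.6 ± 7.77 for Nr1d1. The order differed between the groups. In AC tumours Tef and Per1 led without separating from each other (16.1 to 20.3 and 16.6 to 18.8 FPKM), followed by Clock, Nr1d1 and Per2, and Arntl was last, below every other member. The neighbours Cry1, Per3, Cry2 and Dbp overlapped in turn. In model tumours Per1, Nr1d1 and Clock led with overlapping ranges, Tef came next, and Arntl followed at 7.05 ± 0.963 FPKM, with Cry1, Cry2, Per2, Per3 and Dbp below it in a run of overlapping ranges. In sham colon Nr1d1, Tef, Cry1 and Per2 (13.1 ± 0.32 FPKM) led, while Clock and Arntl came last, in that order and without overlap.

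AC tumours were compared with model tumours to describe how the clock genes differed between mice given the herb pair and mice given saline. The hour of tissue collection is not given for either group. Treatment and a difference in that hour therefore cannot be told apart for these rhythmic genes. Per2, Per3, Dbp and Tef were higher in each AC tumour than in any model tumour, and Arntl was lower in each, so that 5 of the 10 genes had groups that did not overlap. The other 5 genes overlapped. Over all 17137 genes tested, 19% had groups that did not overlap, 9.06% higher and 9.99% lower in AC tumours. Since this contrast is treated as used in choosing the genes, nothing is read from that count.

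**Figure D1:**
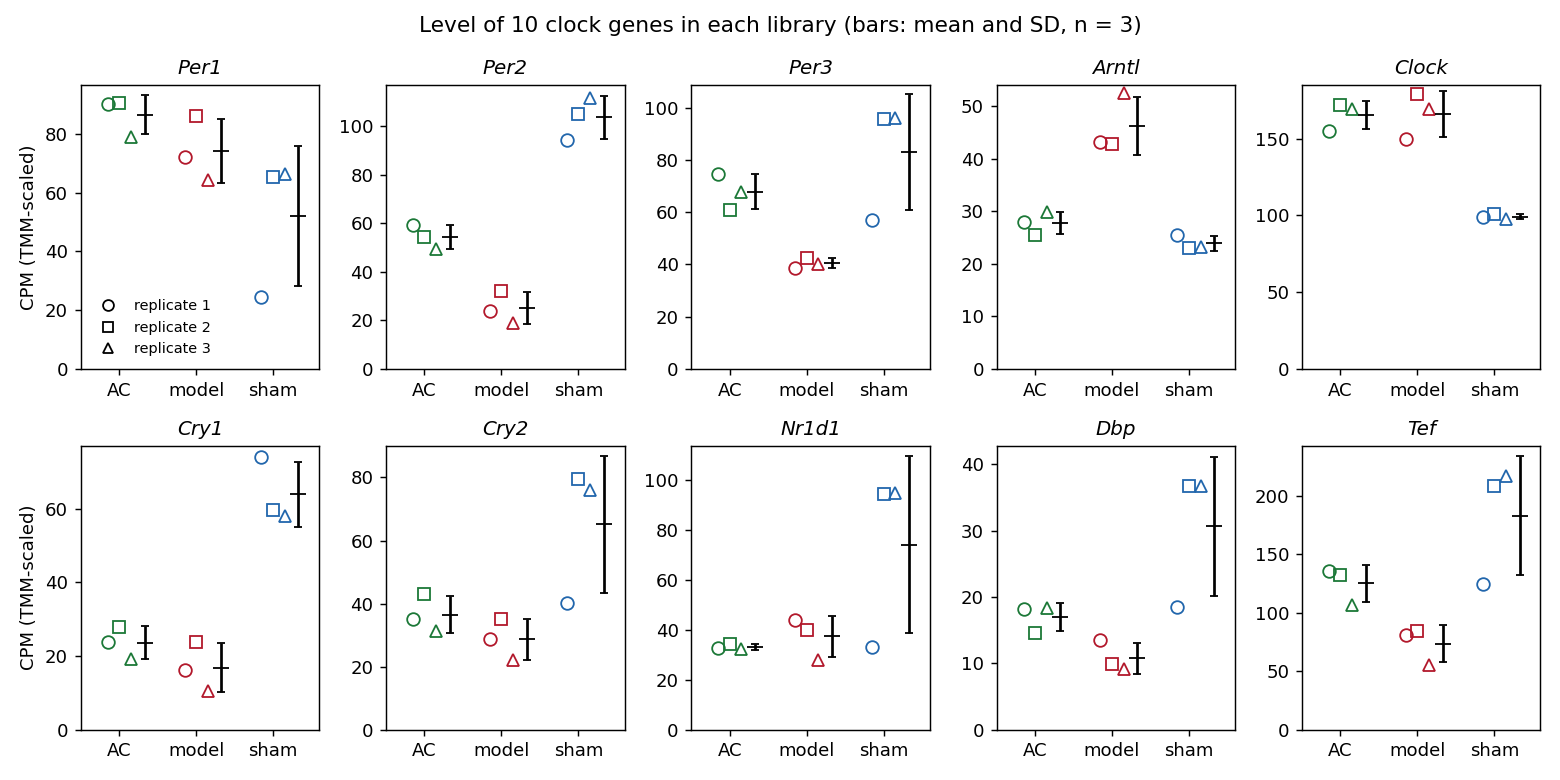
Level of each of the 10 clock genes in every library, in CPM scaled with TMM factors over the 9 libraries (vertical axes start at 0), for AC tumours, model tumours and sham colon. Symbols are replicates 1 to 3 and the black bar is the mean with its SD. Per2, Per3, Dbp and Tef lie higher in AC than in model tumours with no overlap, Arntl lies lower, and sham 1 is the lowest colon library for Per1, Per2, Per3, Cry2, Nr1d1, Dbp and Tef.

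Among the repressors of the loop, Per2 and Per3 differed most. Per2, whose protein binds CRY and carries it to CLOCK and BMAL1, measured 59.4, 54.4 and 49.3 CPM in AC tumours, against 24.0, 32.1 and 18.9 CPM in model tumours. The lowest AC tumour was above the highest model tumour, and the log2 fold change was 1.12 (SE 0.182), a 2.17-fold higher level. Per3, the Period gene that is least needed for rhythm in mice, measured 74.4, 61.0 and 67.8 CPM in AC tumours and 38.7, 42.4 and 40.1 CPM in model tumours (log2 fold change 0.74, SE 0.101). The model tumours were close together and all AC tumours lay above them. Per1, the Period gene that responds fastest to hormones and other acute signals, measured 90.2, 90.7 and 78.9 CPM in AC tumours and 72.0, 86.2 and 64.4 CPM in model tumours (0.22, SE 0.117). These ranges overlapped through model 2 and AC 3.

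The cryptochromes overlapped between the tumour groups. Cry1, the stronger repressor of the pair, measured 23.9, 28.0 and 19.1 CPM in AC tumours and 16.2, 23.9 and 10.5 CPM in model tumours (0.48, SE 0.292). Cry2 measured 35.2, 42.9 and 31.4 CPM in AC tumours and 28.8, 35.0 and 22.1 CPM in model tumours (0.34, SE 0.18). In both genes replicate 2 was the highest and replicate 3 the lowest of each tumour group.

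The activators parted from each other. Arntl, which encodes BMAL1, measured 28.0, 25.5 and 29.8 CPM in AC tumours, against 43.2, 42.9 and 52.6 CPM in model tumours. Every AC tumour was below every model tumour, and the log2 fold change was -0.73 (SE 0.118), a level 0.601 times that of model tumours. Clock, its partner, measured 155, 172 and 169 CPM in AC tumours and 150.0, 179 and 169 CPM in model tumours, with a log2 fold change of -0.01 (SE 0.0934) whose sign changed in 6 of 16 alternative settings, among them the fit without scaling factors. Nr1d1, the REV-ERB alpha gene that represses Arntl, measured 32.7, 34.3 and 32.4 CPM in AC tumours and 44.0, 40.0 and 28.0 CPM in model tumours (-0.18, SE 0.158), and the narrow AC range fell inside the wide model range.

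The D-box output factors were both higher. Dbp, an activator under direct control of CLOCK and BMAL1, measured 18.2, 14.6 and 18.3 CPM in AC tumours and 13.5, 9.84 and 9.09 CPM in model tumours (0.65, SE 0.188). The groups came close, with AC 2 next to model 1. Tef, a D-box activator of the same family, measured 136, 132 and 107 CPM in AC tumours and 80.8, 84.3 and 55.6 CPM in model tumours (0.76, SE 0.164), with a clear gap between the groups. Dbp shares 539 of its 2993 exon bases (18%) with Sphk2 on the opposite strand, and Nr1d1 shares 263 of 3077 (8.55%) with Thra. The strand setting of the counting is not given in the sources used here, so reads of these neighbours cannot be told apart there and the values of Dbp and Nr1d1 are uncertain, by an amount that was not tested. Sphk2 itself measured 20.2, 25.2 and 18.2 CPM in AC tumours and 16.4, 20.1 and 15.3 CPM in model tumours, ranges that overlap.

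In the edgeR quasi-likelihood test with Benjamini-Hochberg adjustment, 0 of 17137 genes passed an adjusted p of 0.05 in this comparison (0% of all genes, smallest adjusted p 0.103), and so 0 of the 10 clock genes did, while 2253 genes (13.1%) had an unadjusted p under 0.05. Other fits did make calls. DESeq2 called 291 of 13672 genes (2.13%), among them Per2, Per3, Arntl and Tef. Without AC 3, edgeR called 569 of 17749 genes (3.21%), among them the same 4 clock genes. Without a filter on low counts it called 105 of 33023 (0.318%), among them Per2, Per3 and Arntl. None of this is independent of the choice of the genes, so nothing is read from these calls of clock genes. With both tumours richest in epithelial transcripts (model 1 and AC 3) left out, the log2 fold change was 1.14 for Per2, 0.70 for Per3, -0.84 for Arntl, 0.78 for Dbp and 0.93 for Tef. That edgeR fit called 94 genes in all and 0 of the 10 clock genes. With single libraries left out, Per2 ran from 0.95 to 1.34, Per3 from 0.68 to 0.81, Arntl from -0.80 to -0.63, Dbp from 0.54 to 0.85 and Tef from 0.60 to 0.87. Of the overlapping genes, Per1 ran from 0.13 to 0.34, Cry1 from 0.24 to 0.82, Cry2 from 0.19 to 0.51 and Nr1d1 from -0.35 to -0.04.

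**Figure D2:**
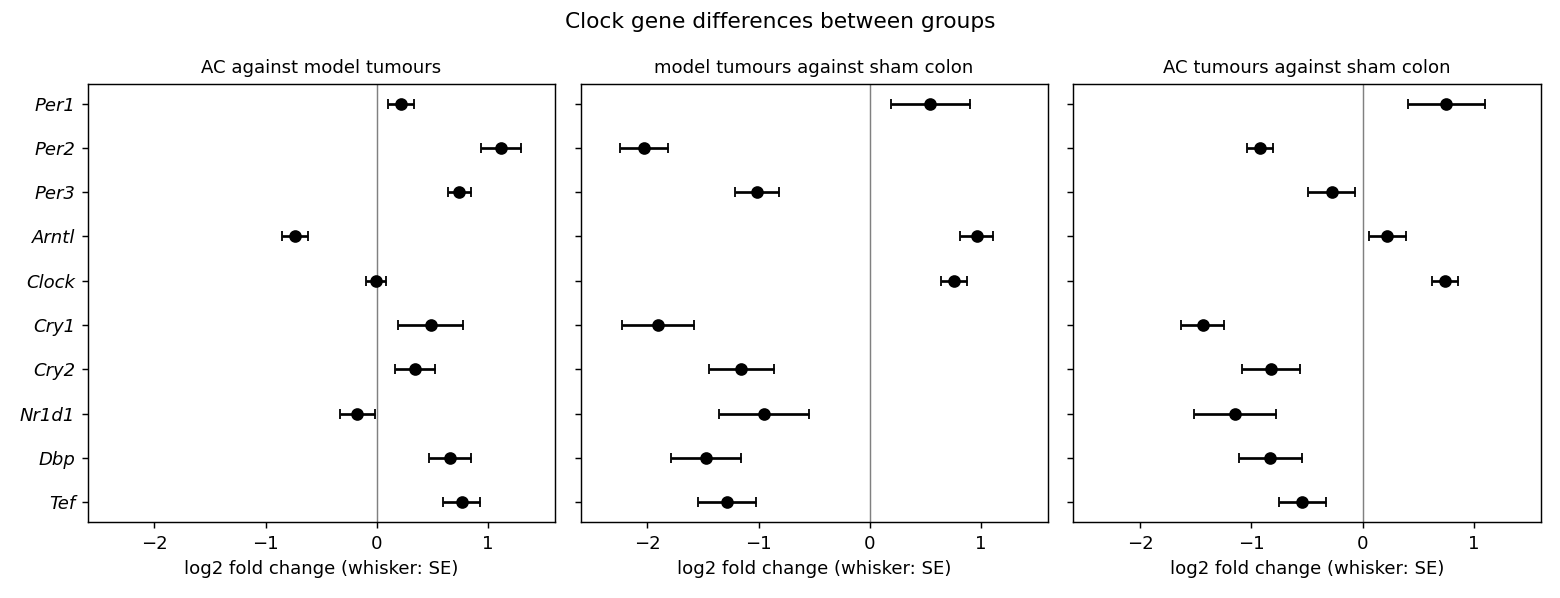
Log2 fold change of each clock gene (horizontal axis, whiskers are the SE of the edgeR fit) in AC against model tumours, model tumours against sham colon and AC tumours against sham colon. In AC against model tumours Per2 is at 1.12 and Arntl at -0.73, and in model tumours against colon Per2 is at -2.03 and Arntl at 0.96. The comparisons share libraries, so the panels are not independent of each other.

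The ratio of 2 genes within a library does not depend on how libraries are scaled. Both genes of each ratio here were chosen on their group levels in these data, so groups that separate in a ratio are a description only. How many ratios of other gene pairs separate was not tested. Per2 to Arntl, as a ratio of FPKM, was 2.73, 2.74 and 2.12 in AC tumours, 0.713, 0.961 and 0.462 in model tumours, and 4.75, 5.85 and 6.19 in sham colon. Arntl thus exceeded Per2 in every model tumour and in no AC tumour or colon sample, and the 3 groups did not overlap. Dbp to Arntl was 1.64, 1.43 and 1.54 in AC tumours, 0.784, 0.576 and 0.435 in model tumours and 1.83, 4.0 and 4.0 in colon, again with no overlap. Per3 to Arntl was 1.78 to 2.08 in AC tumours, 0.598 to 0.775 in model tumours and 1.76 to 3.26 in colon, where sham 1 lay just below the AC tumours. Tef to Arntl was 3.43 to 4.95 in AC tumours, 1.01 to 1.88 in model tumours and 4.68 to 8.97 in colon, where sham 1 fell inside the AC range. Clock to Arntl was highest in AC tumours, at 3.28 ± 0.355, against 1.99 ± 0.269 in model tumours and 2.28 ± 0.137 in colon (SD, n = 3). Within the Period genes, Per2 to Per1 was 0.604 ± 0.0286 in AC tumours and 0.32 ± 0.0381 in model tumours, and 3.71, 1.55 and 1.62 in colon.

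**Figure D3:**
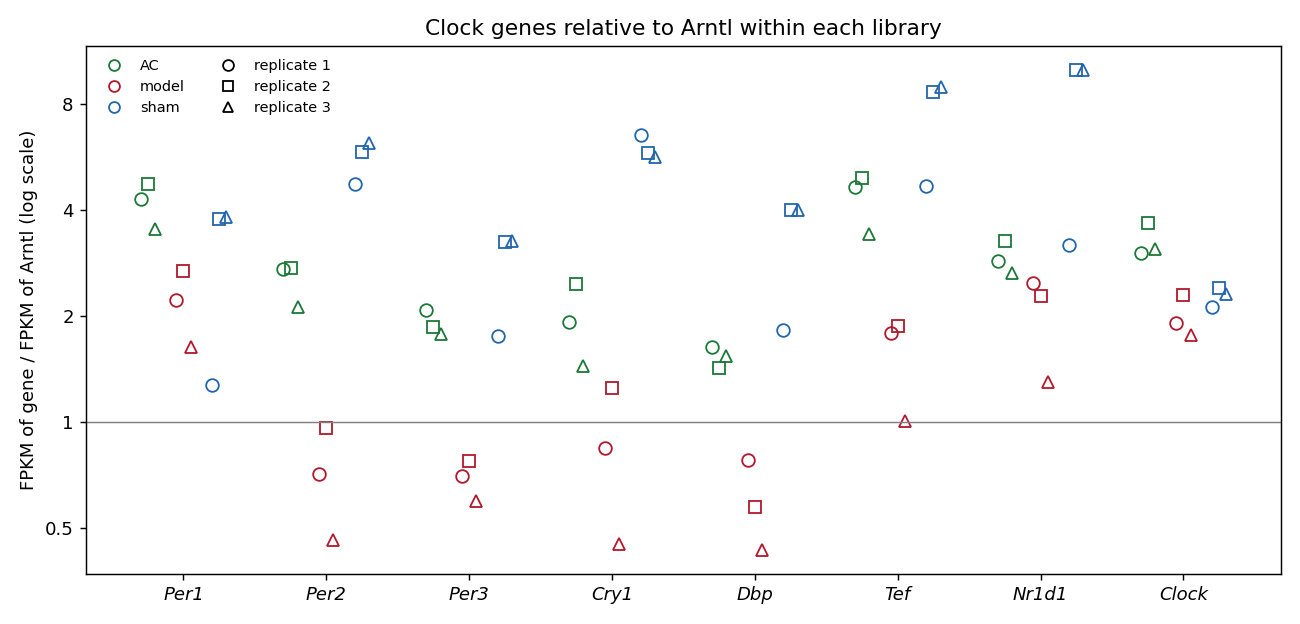
FPKM of each of 8 clock genes divided by the FPKM of Arntl in the same library, on a log axis, for AC tumours, model tumours and sham colon, with replicates as circle, square and triangle. Per2 to Arntl lies between 2.12 and 2.74 in AC tumours, between 0.462 and 0.961 in model tumours and between 4.75 and 6.19 in colon.

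Several cell type markers moved with this comparison. Summed markers of dividing cells were at 991.5 to 1119 CPM in AC tumours and 1192 to 1402 CPM in model tumours, with no overlap, and each of the 4 genes was lower in every AC tumour. Summed T cell markers were at 8.7 to 14.7 CPM in AC tumours and 14.35 to 21.3 CPM in model tumours, fibroblast markers at 321 to 749 and 683 to 920 CPM, macrophage markers at 436 to 746 and 328 to 515 CPM, and endothelial markers at 95.2 to 126 and 114 to 128 CPM, all overlapping. Single genes of these lists did separate. Of 4 fibroblast markers, Col1a1 (98.9 to 101 CPM in AC tumours, against 130 to 190 CPM in model tumours) and Pdgfra (49.3 to 72.9 against 79.9 to 85.2 CPM) were lower in every AC tumour. So were the T cell markers Cd3e (1.71 to 2.73 against 3.14 to 4.05 CPM) and Cd3g (1.88 to 2.31 against 2.73 to 4.73 CPM) and the endothelial marker Kdr (13.5 to 14.0 against 14.5 to 21.1 CPM). Of 8 epithelial markers only Krt20 separated, and it was higher in every AC tumour (257 to 390 against 178 to 239 CPM). Epcam was at 0.952, 0.554 and 67.7 CPM in AC tumours and 35.7, 0.911 and 0.26 CPM in model tumours. All other genes of the T cell, fibroblast, macrophage, endothelial and epithelial lists overlapped. Adipocyte and skeletal muscle markers, whose tissues have strong clocks, stayed at or under 1.55 and 0.473 CPM in all tumours, with Lep and Myh4 at 0 counts in all libraries. The part of these cells in the clock gene differences was not tested.

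Other genes of the clock, outside these 10, were tested, in lists also drawn up with earlier results known. Of 32 tested members of 3 further lists (other clock genes, clock kinases and ligases, and clock outputs, 36 genes in all), 0 passed the adjusted threshold in edgeR in AC against model tumours, as for all genes (0%). At an unadjusted p under 0.05 there were 8 of 32 (25%), against 13.1% of all genes, 6 higher and 2 lower in AC tumours. These were Bhlhe41 and Timeless, Csnk1e, and the outputs Nampt, Tsc22d3, Tspan4, Cdkn1a and Coq10b. Because results were known when the lists were drawn up, nothing is read from that share. The median log2 fold change was 0.06 over the 32 genes, against 0.01 over all genes. Tsc22d3 (GILZ), a glucocorticoid-induced and rhythmic gene, had the smallest p of the outputs. It measured 230, 209 and 259 CPM in AC tumours and 119, 155 and 132 CPM in model tumours (0.79, SE 0.124, edgeR adjusted p 0.127), with no overlap. It passed in DESeq2 (adjusted p 6.4e-06), without AC 3 (0.0285) and without a filter (0.000526), and Tspan4, a tetraspanin that cycles in many tissues, passed without AC 3 (0.0311). Bhlhe41 (DEC2), a repressor that competes for E-boxes, had the smallest p of the other clock genes, at 24.0, 26.7 and 23.6 CPM in AC tumours and 17.9, 20.04 and 17.0 CPM in model tumours (0.43, SE 0.118, adjusted p 0.257). Csnk1e, casein kinase 1 epsilon, which marks PER for destruction, had the smallest p of the kinases and ligases, at 89.3, 125 and 73.8 CPM in AC tumours and 68.5, 72.9 and 65.5 CPM in model tumours (0.47, SE 0.174, adjusted p 0.326). Nr1d2, the close relative of Nr1d1, measured 127, 120 and 130 CPM in AC tumours and 118, 110 and 98.3 CPM in model tumours (0.21, SE 0.0927, adjusted p 0.384).

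Model tumours were compared with sham colon to ask how the clock genes stand in the untreated tumour. Arntl and Clock were higher in every model tumour than in any colon sample, and Per2, Per3, Cry1, Cry2, Dbp and Tef were lower in every one. Per1 overlapped, as model 3 lay below sham 2 and sham 3, and Nr1d1 overlapped through sham 1. By edgeR 8 of the 10 genes passed the adjusted threshold, 2 higher and 6 lower, in a comparison where 69.7% of 18228 genes passed and 76.9% did not overlap (41.3% higher and 35.6% lower). Since this contrast too is treated as used in choosing the genes, nothing is read from that count. Without scaling factors the median of all genes, 0.12, shifted by 0.60 on the log2 scale. No clock gene changed sign there, but the count became 3 higher and 4 lower, with Per3 and Cry2 no longer passing and Per1 passing.

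Per2 had the largest difference of the repressors, at 24.0, 32.1 and 18.9 CPM in model tumours, against 94.3, 105 and 111 CPM in colon (log2 fold change -2.03, SE 0.216). Cry1 was similar, at 16.2, 23.9 and 10.5 CPM in model tumours and 73.9, 59.5 and 58.1 CPM in colon (-1.9, SE 0.323). For both genes all 3 colon samples, sham 1 included, were far above the tumours. Per3 measured 38.7, 42.4 and 40.1 CPM in model tumours and 57.2, 95.7 and 96.2 CPM in colon (-1.01, SE 0.201), and Cry2 28.8, 35.0 and 22.1 CPM against 40.2, 79.4 and 75.9 CPM (-1.15, SE 0.294). In these genes sham 1 lay between the tumours and the other colon samples. Per1 measured 72.0, 86.2 and 64.4 CPM in model tumours and 24.5, 65.3 and 66.3 CPM in colon (0.55, SE 0.358), or 0.21 without sham 1.

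The activators ran the other way. Arntl measured 43.2, 42.9 and 52.6 CPM in model tumours, against 25.5, 23.0 and 23.1 CPM in colon (0.96, SE 0.149), and Clock 150.0, 179 and 169 CPM, against 99.1, 101 and 97.5 CPM (0.76, SE 0.115). Both had a tight colon range that included sham 1. Dbp measured 13.5, 9.84 and 9.09 CPM in model tumours and 18.5, 36.7 and 36.8 CPM in colon (-1.47, SE 0.316). Tef measured 80.8, 84.3 and 55.6 CPM in model tumours and 125, 208 and 217 CPM in colon (-1.29, SE 0.261). Nr1d1 measured 44.0, 40.0 and 28.0 CPM in model tumours and 33.2, 94.6 and 94.8 CPM in colon (-0.95, SE 0.405), or -1.3 without sham 1. Of the opposite-strand neighbours, Sphk2 fell (-1.61, SE 0.255, edgeR adjusted p 0.00151) and Thra had a log2 fold change of -0.75 (SE 0.284, adjusted p 0.0518).

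Relatives of the clock genes differed strongly between tumour and colon. Of 12 tested other clock genes, 4 rose and 7 fell in model tumours, against 36.8% of all genes that rose and 32.9% that fell. Npas2, which can stand in for Clock, fell to 0.41, 0.0911 and 0 CPM in model tumours, against 20.4, 24.7 and 29.4 CPM in colon (-6.99, SE 0.763, adjusted p 0.000317). The tumour values rest on 11, 2 and 0 counts, so the size of this fold change is uncertain. It ran from -8.77 to -2.21 over the alternative settings. Arntl2, which can stand in for Arntl, rose to 5.44, 8.52 and 9.45 CPM in model tumours, against 2.03, 3.05 and 2.06 CPM in colon (1.72, SE 0.314, adjusted p 0.00271). Per length, Clock was the higher of its pair in all groups, while Npas2 reached at most 0.0978 FPKM in any tumour, against 3.83 ± 0.472 FPKM in colon (SD, n = 3), beside 5.37 ± 0.37 FPKM of Clock there.

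**Figure D4:**
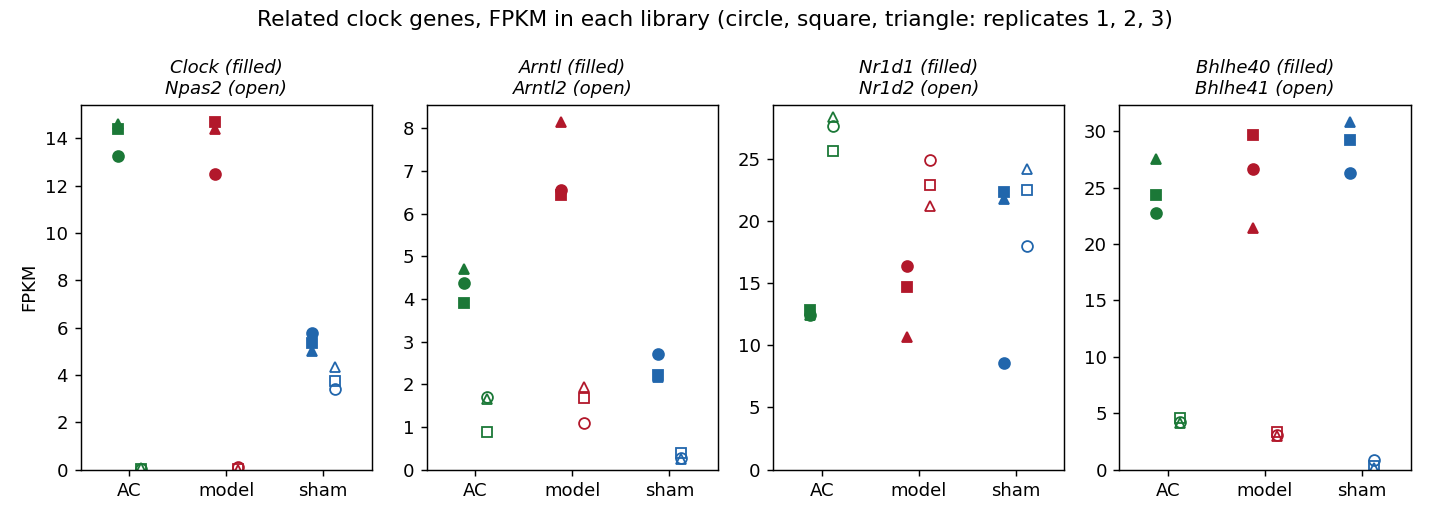
FPKM of 4 pairs of related clock genes in every library (first gene filled, second open, circle, square and triangle for replicates 1 to 3, vertical axes starting at 0 and scaled per pair). Npas2 is at or under 0.0978 FPKM in all tumours, while Arntl2 and Bhlhe41 are higher in all tumours than in colon.

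Besides Arntl2, the other clock genes that rose were repressors and a replication factor. Nfil3, the repressor at D-boxes that opposes DBP and TEF, rose to 21.3, 23.1 and 20.04 CPM in model tumours, against 3.51, 3.13 and 4.82 CPM in colon (2.51, SE 0.227, adjusted p 0.000146). Hlf, a further activator of the family of Dbp and Tef, fell to 0.636 ± 0.36 CPM in model tumours, against 5.33 ± 1.51 CPM in colon (-2.99, SE 0.493, adjusted p 0.00177). Bhlhe41 rose (2.22, SE 0.512, adjusted p 0.00755) and Timeless, which serves DNA replication in mammals, rose (2.03, SE 0.413, adjusted p 0.00434). In Bhlhe41 and Timeless sham 1 was the highest colon library, as it was for the dividing cell markers (1192 to 1402 CPM in model tumours, against 434.6 CPM in sham 1 and 147.5 and 145.8 CPM in the other colon samples). Cipc, an inhibitor of CLOCK, fell to 28.3 ± 2.05 CPM in model tumours, against 376 ± 124 CPM in colon (-3.7, SE 0.278, adjusted p 7.55e-05). Rora, Bhlhe40 and Nr1d2 also fell, and Ciart did not pass (-0.31, SE 0.278, adjusted p 0.356). The call of Nr1d2 (-0.51, SE 0.177, edgeR adjusted p 0.0365) was lost without model 2, model 3, sham 2 or sham 3, without a filter, with the replicate block, and without scaling factors or with limma on FPKM, where its sign changed.

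Of 11 tested clock kinases and ligases, 1 rose and 6 fell, in a comparison where 69.7% of all genes passed. Csnk1e rose to 69.0 ± 3.69 CPM in model tumours, against 17.8 ± 2.39 CPM in colon (1.97, SE 0.146, adjusted p 6.87e-05), while Csnk1a1, another casein kinase 1, fell to 301 ± 12.5 CPM, against 743 ± 45.4 CPM (-1.29, SE 0.146, adjusted p 0.000359). Usp2, a deubiquitinase whose transcript cycles in many tissues, fell to 11.7 ± 1.12 CPM, against 179 ± 19.9 CPM (-3.92, SE 0.154, adjusted p 1.62e-05). Skp1a, a subunit of SCF ubiquitin ligases, fell too (-1.26, SE 0.266, adjusted p 0.00518), a call lost without scaling factors. Of 11 clock outputs, 2 rose and 5 fell, a share again close to the 69.7% of all genes. Tspan4 rose to 63.3 ± 3.89 CPM in model tumours, against 3.82 ± 0.748 CPM in colon (4.07, SE 0.195, adjusted p 2.22e-05), and Wee1, a mitotic brake driven by E-boxes, rose (0.68, SE 0.149, adjusted p 0.00603). Coq10b (-2.29, SE 0.146, adjusted p 4.27e-05), Klf10 (-1.16, SE 0.122, adjusted p 0.000268) and Cdkn1a, the p21 cell cycle inhibitor (-1.45, SE 0.228, adjusted p 0.00143), fell. Nampt, the rhythmic enzyme of NAD salvage, fell as well (-0.5, SE 0.123, adjusted p 0.00961), but its sign changed without scaling factors (0.11). Over the 3 lists together 7 of 34 tested genes rose and 18 fell, with a median log2 fold change of -0.53, against 0.12 for all genes, and 9 rose and 11 fell without scaling factors.

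**Figure D5:**
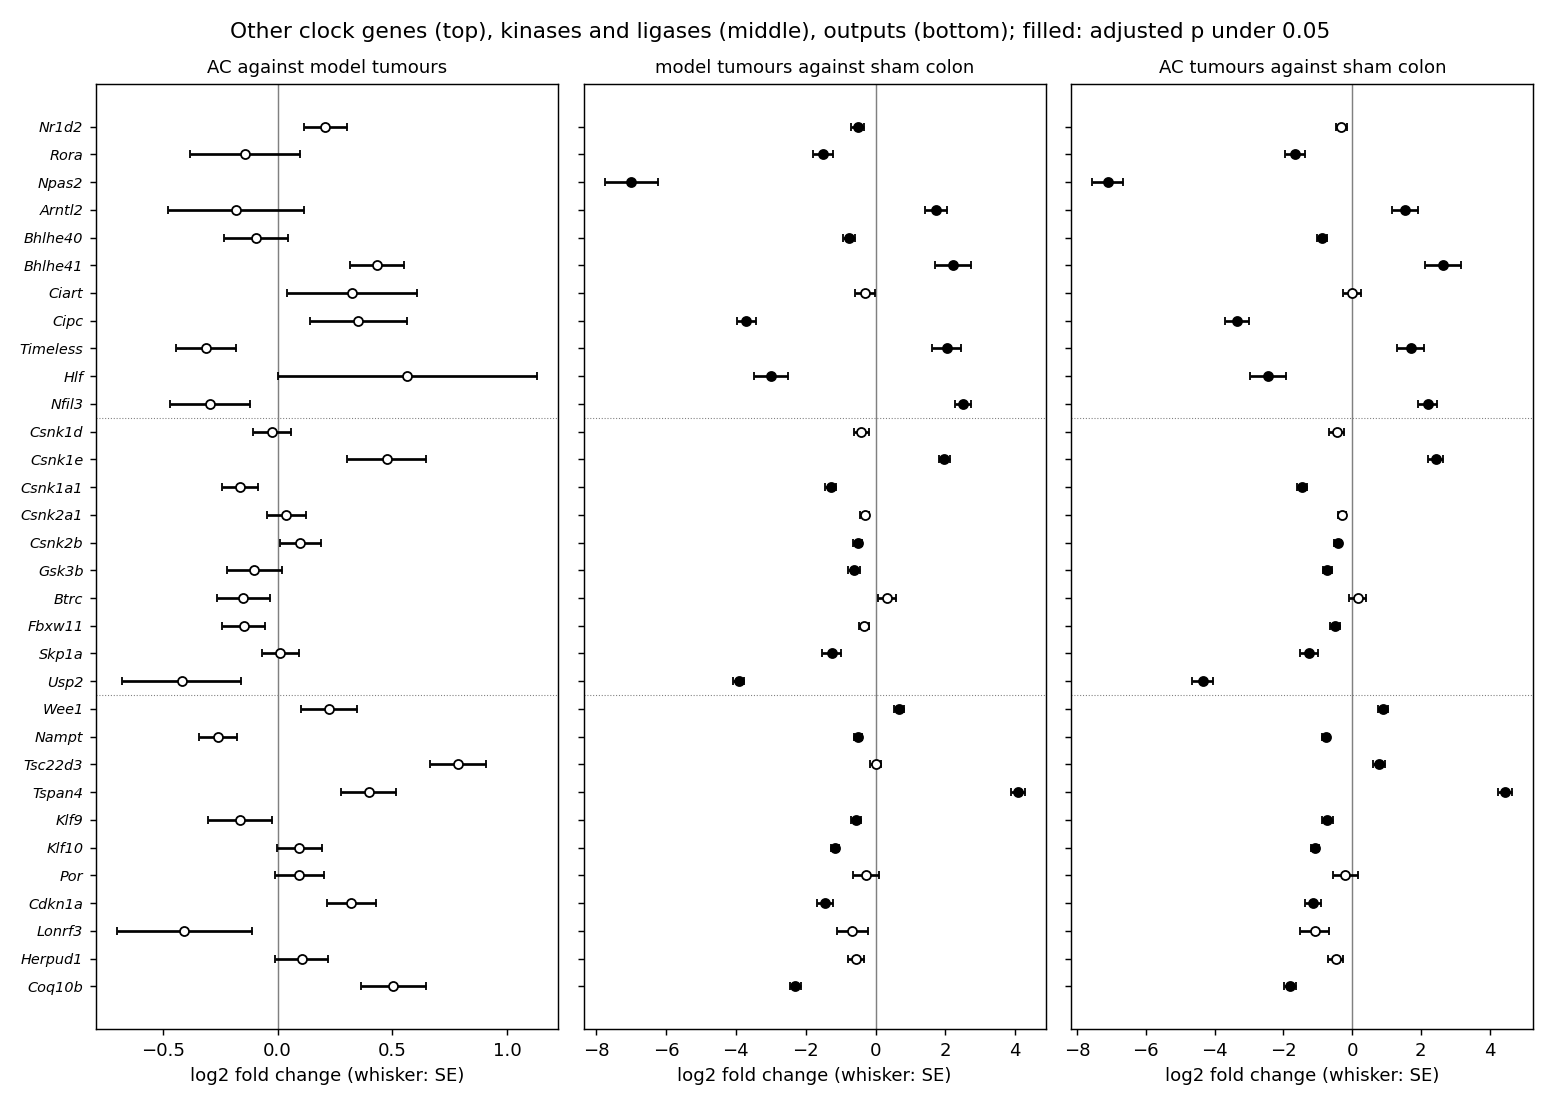
Log2 fold change with SE (horizontal axes, a narrower range in the left panel) of tested genes of the 3 further lists in each comparison, filled where the edgeR adjusted p was under 0.05. None is filled in AC against model tumours, while 23 of the 32 genes drawn are filled in model tumours against colon and 24 of 32 in AC tumours against colon.

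AC tumours were set against the same colon samples, which they share with the comparison above. Here 3 of the 10 genes lay higher without overlap (Per1, Arntl and Clock), 3 lower (Per2, Cry1 and Dbp), and 4 overlapped, where 40.5% of 17832 genes lay higher and 35.3% lower without overlap (75.7% in all). Nothing is read from these counts either. Per2 measured 59.4, 54.4 and 49.3 CPM in AC tumours, against 94.3, 105 and 111 CPM in colon (-0.92, SE 0.117), and Cry1 23.9, 28.0 and 19.1 CPM, against 73.9, 59.5 and 58.1 CPM (-1.44, SE 0.195). Arntl at 25.5 to 29.8 CPM in AC tumours lay just above 23.0 to 25.5 CPM in colon (0.22, SE 0.163), its lowest AC value and highest colon value being almost equal. Clock was at 155 to 172 CPM in AC tumours and 97.5 to 101 CPM in colon (0.74, SE 0.115). Per3 and Tef had log2 fold changes of -0.28 (SE 0.209) and -0.54 (SE 0.213), with sham 1 inside or near the AC range, and both changed sign without scaling factors (0.38 and 0.12), where the median of all genes shifted by 0.65. Dbp was at -0.83 (SE 0.284), Cry2 at -0.83 (SE 0.261), Nr1d1 at -1.14 (SE 0.37) and Per1 at 0.75 (SE 0.347). By edgeR 6 of the 10 genes passed, 1 higher and 5 lower, where 68.2% of all genes passed, and this count was 3 without any one of the AC tumours, sham 2 or sham 3. Without sham 1 it was 9, where 75.7% of all genes passed, and the log2 fold change was 0.33 for Per1, -0.57 for Per3, -1.16 for Cry2, -1.58 for Nr1d1, -1.17 for Dbp and -0.83 for Tef. Without sham 1 the colon spread rests on sham 2 and sham 3, the closest pair of libraries within a group. Nothing is read from the calls, since this contrast is treated as used in choosing the genes.

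In the further lists 8 of 34 genes rose and 18 fell in AC tumours against colon, against 35.5% of all genes that rose and 32.7% that fell, or 10 and 9 of the 34 without scaling factors. Npas2 (0.17 ± 0.105 CPM in AC tumours, against 24.8 ± 4.47 CPM in colon, adjusted p 5.92e-05), Cipc (36.1 ± 11.3 against 376 ± 124 CPM, adjusted p 0.000339) and Usp2 (8.72 ± 3.17 against 179 ± 19.9 CPM, adjusted p 8.35e-05) fell. Nfil3 (17.6 ± 4.33 against 3.82 ± 0.889 CPM, adjusted p 0.000679), Bhlhe41 (24.7 ± 1.66 against 3.92 ± 2.75 CPM, adjusted p 0.0041) and Csnk1e (96.1 ± 26.4 against 17.8 ± 2.39 CPM, adjusted p 0.000178) rose. Tsc22d3 rose to 233 ± 25.02 CPM in AC tumours, against 136 ± 14.8 CPM in colon (0.78, SE 0.169, adjusted p 0.00617), and in model tumours it did not pass against the same colon samples (0.0, SE 0.157, adjusted p 0.99). Bhlhe40 (-0.86, SE 0.147, adjusted p 0.0023), Gsk3b, a kinase that acts on several clock proteins (-0.72, SE 0.126, adjusted p 0.00253), and Nampt (-0.77, SE 0.112, adjusted p 0.0012) fell, and these 3 calls were lost without scaling factors. So was that of Cdkn1a (-1.14, SE 0.227, adjusted p 0.0043), which fell in the TMM fit. Timeless (1.71, SE 0.398), Arntl2 (1.54, SE 0.371), Tspan4 (4.45, SE 0.206) and Wee1 (0.89, SE 0.143) rose, and Rora (-1.66, SE 0.299), Csnk1a1 (-1.46, SE 0.141), Coq10b (-1.81, SE 0.173) and Klf10 (-1.07, SE 0.116) fell.

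Spread within groups differed between the genes. The highest library of a group was 1.06 to 1.47 times the lowest in AC tumours (median over the 10 genes 1.21), 1.1 to 2.28 times in model tumours (median 1.5) and 1.03 to 2.86 times in colon (median 1.71). In colon sham 1 was the lowest library for 7 of the 10 genes, where it was the lowest for 51.6% of 18920 genes. Nr1d1 (2.86-fold) and Per1 (2.71-fold) spread most there, and Clock least (1.03-fold). Thra, the neighbour of Nr1d1, showed the same order, at 28.8 CPM in sham 1 and 60.7 and 63.9 CPM in sham 2 and sham 3. In model tumours replicate 3 was the lowest library for 7 of the 10 genes (32.2% of all genes) and the highest for Arntl alone. Model 3 had 52.6 CPM of Arntl and 18.9 CPM of Per2, and model 2 had 42.9 and 32.1 CPM. Cry1 spread most among model tumours (2.28-fold) and Per3 least (1.1-fold). In AC tumours replicate 3 was the lowest for 6 of the 10 genes (37.5% of all genes) and the highest for Arntl and Dbp.

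Genes with the level pattern most like Arntl over the 9 libraries, on the log2 scale and among 11108 genes with at least 5 CPM on average, were Mynn (Pearson r 0.964), H2-Q4 (0.938) and Zfx (0.935). H2-Q4 belongs to a family of close copies and its value is uncertain. Mynn measured 27.1, 27.2 and 29.3 CPM in AC tumours, 36.6, 33.2 and 40.5 CPM in model tumours and 23.7, 24.6 and 25.9 CPM in colon. An r above 0.9 with Arntl was reached by 15 genes. For Dbp the most alike were Dclre1b (0.977), Pex26 (0.974) and Rabep2 (0.962), and 153 genes exceeded 0.9. The 9 libraries form 3 groups of 3, so the r values are a description of these libraries.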

How the data were processed

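Per the labels' protocols, Trizol RNA went into Illumina libraries of a VAHTS kit. The authors deposited raw read counts per gene (featureCounts 1.5.0-p3 and build mm9 are named in the submitters' processing notes) and FPKM values derived from them. No source used here names an aligner or a strand setting. The ratio of counts to FPKM gave the exon length of GENCODE M21 (GRCm38) to within 1% for 96.8% of the 22279 genes that had 20 or more counts and for all 10 clock genes, so symbols and overlaps come from GENCODE M21. Of the 56398 features, 1952 had no Ensembl identifier.

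Groups were taken from the treatment labels. Every comparison used the 6 libraries of its 2 groups in edgeR 4.0.16 (R 4.3.3, TMM factors, filterByExpr, robust quasi-likelihood fit, Benjamini-Hochberg adjustment over all genes, threshold 0.05). DESeq2 1.42.0 and limma 3.58.1 on log2(FPKM + 1) or log2(FPKM + 0.1) were alternatives, as were other scaling factors, no filter, 1 fit of all libraries, a replicate block and leaving out libraries. Levels are CPM with TMM factors over all 9 libraries. The SE of a fold change was derived from the F statistic. The fit was tested on simulated data. A count of 3, taken as the floor of detection, is 0.128 to 0.191 CPM of the raw library totals, covering counting error only. This range is before TMM scaling, so it does not apply exactly to the levels printed here. No libraries were identical, but sham 2 and sham 3 were the closest pair within a group. A chi-square of their counts per degree of freedom was 3.06, against 100.5 and 118.8 for sham 1 with each of them. Within the tumour groups it ran from 10.2 to 28.7. Whether sham 2 and sham 3 come from different animals is not stated.

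The clock genes and all lists were chosen with earlier results of these data known, so nothing is read from the share of a list that passed. All 10 clock genes are named. Of each further list, up to 4 genes past the threshold in each direction by smallest p are named, or the gene with the smallest p. Others named, among them Nr1d2, Ciart and the neighbours Sphk2 and Thra, were chosen after their values were seen. Alike genes were the 3 with the highest r. A pair of genes counted in the further lists is not reported here by name.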

Additional observations from a re-analysis of the deposited data

How the results depend on the processing

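In AC against model tumours edgeR called 0 genes with each scaling, in 1 fit of all 9 libraries, with the replicate block and with limma on FPKM. It called 105 genes without a filter and 94 without model replicate 1 and AC replicate 3, DESeq2 called 291, and leaving out single libraries gave 0 to 569, the highest without AC 3. For the 36 genes of the further lists the count was 0, against 1 without a filter, 1 with DESeq2 and 0 to 2 with single libraries left out. For the 10 clock genes it was 0, against 3 without a filter (0.318% of all genes) and 4 with DESeq2 (2.13%). With single libraries left out it was 0 to 4 (3.21% of all genes without AC 3), and it was 0 without model replicate 1 and AC replicate 3. In AC tumours against colon 6 of the 10 clock genes passed, where 68.2% of all genes did. The count was 3 without model replicate 1 and AC replicate 3 (here AC 3 alone), where 5944 of all genes rose and 5748 fell. With single libraries left out it was 3 to 9 (75.7% of all genes without sham 1). The cause of the changes in these counts was not tested, and nothing is read from the counts of the 10 clock genes.

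Against colon, the scaling moved the split of all calls. Model tumours had 6700 genes higher than colon and 5997 lower, or 9060 and 4405 without scaling factors, and AC tumours had 6339 and 5826, or 8832 and 4114. Nampt in model tumours against colon changed sign without scaling factors (0.11) and with limma on log2(FPKM + 1) (0.10) or log2(FPKM + 0.1) (0.11). The group means of 7 of the 10 clock genes kept their order in FPKM. The replicate block is not a paired design here: numbers are not said to pair samples, and same-numbered tumours of AC and model correlated at -0.528, 0.435 and -0.312 in their deviations from the group means. With the block, 0 genes were called in AC against model tumours, 6275 rose and 5499 fell in model tumours against colon, 5966 rose and 5337 fell in AC tumours against colon, and the further lists had 24 and 25 calls against colon, where the fits without it had 25 and 26.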
